A study of Mus musculus with 6 samples.

Results

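The transcripts described here belong to the receptor pathway of the cytokines interleukin-4 (IL-4) and interleukin-13 (IL-13). The set has 10 genes, namely Il13ra1, Il13ra2, Il4ra, Il2rg, Il27ra, Il17rd, Jak1, Jak2, Tyk2 and Stat6. It was assembled around 2 genes, Il13ra1 and Il4ra, that were selected on their lower values after Pax6 knockdown in these arrays. The remaining genes were chosen with earlier results of these arrays known. The knockdown differences of all of them are therefore given as a description. Where members are counted at a false discovery rate (FDR), the count is printed beside the share of all genes and is not evidence about the set, since the choice of genes used the same arrays. Of the 10 genes, 9 had a probe set named for a single gene, out of 19938 such genes on the array. No probe set was assigned to Il2rg in the annotation used, and it was not analysed here. Il13ra2 lay below the low-value filter, which left 8 of the 11424 genes that entered the fit.

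The cells were N2A, an established mouse neuroblastoma line, transiently transfected with 1.5 µg of a hairpin RNA expression vector. The 3 control arrays come from cells given a non-targeting vector, and the 3 knockdown arrays from cells given a Pax6 knockdown construct, with RNA taken 3 days later in both groups. Per the study's methods the hairpin is driven by a U6 promoter in a plasmid that also carries enhanced green fluorescent protein. The study describes a single Pax6-targeting vector for this comparison, so a result of lower Pax6 and any other effect of that hairpin cannot be told apart. Values are log2 summaries of signal per probe set made by robust multi-array averaging (RMA), differences are knockdown minus control, and n = 3 arrays per group throughout. On a log2 scale a difference of -1 is a halving of the signal.

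Pax6, the targeted gene, had a mean log2 value of 8.81 ± 0.017 (SD, n = 3) in control and 8.43 ± 0.11 (SD, n = 3) in knockdown arrays. The difference was -0.38 (SE 0.071), which is 0.768 of the control signal. The study also reports a larger reduction of PAX6 protein by Western blot, which is a different measure from the array signal. Pax6 passed 10% FDR by limma with all 6 arrays but not in 5 of 15 alternatives. These were the variance filter and the fits without control replicate 1, 2 or 3 or knockdown replicate 3. Of 16 measured marker genes of noradrenergic neuroblastoma cells 14 lay above the array median, among them Hand2, Gata2 and Phox2a, while the neurofilament genes Nefl and Nefm did not. Their summed linear signal was 52510 to 53690 in control and 47200 to 48330 in knockdown arrays. By limma at 10% FDR 4 of them were lower and 0 higher, beside 3.88% and 2.79% of all genes in the fit. The 4 were Dbh (-1.08), Chgb (-0.48), Isl1 (-0.35) and Chga (-0.30). Among the other markers above the median the differences ran from -0.22 in Th to 0.19 in Elavl4. Chgb and Chga had log2 control means of 13.31 and 13.18, and such high values weigh heavily in a linear sum. Of 15 leukocyte and macrophage markers 0 lay above the array median, including Ptprc, Csf1r and Cd3e, and their summed signal was 1376 to 1414 in control and 1265 to 1492 in knockdown arrays. Of 10 fibroblast and endothelial markers 4 did, namely Col1a1, Col1a2, Col3a1 and Pecam1, and the summed signal was 1770 to 1913 and 1758 to 1896. The part of the lower neuroblastoma marker signal in the results below was not tested.

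IL-4 and IL-13 are cytokines best known from allergic inflammation and from the alternative activation of macrophages. IL-4 binds the IL-4 receptor alpha chain, which pairs either with the common gamma chain encoded by Il2rg (the type I receptor) or with the IL-13 receptor alpha-1 chain (the type II receptor). The type II receptor also binds IL-13 and is the form used by most cells outside the blood lineages. Janus kinases attached to the chains, mainly JAK1 on the IL-4 receptor alpha chain and TYK2 or JAK2 on the IL-13 receptor alpha-1 chain, then phosphorylate the transcription factor STAT6. The IL-13 receptor alpha-2 chain binds IL-13 with high affinity and is described mainly as a decoy.

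Both chains of the type II receptor were lower in the knockdown cells. Il13ra1, which encodes the IL-13 binding subunit, read 8.67, 8.57 and 8.20 on the log2 scale in control cells against 7.24, 7.04 and 7.19 after knockdown. Every knockdown array lay below every control array, and 0.96 separated the lowest control from the highest knockdown value. The means were 8.48 ± 0.25 and 7.16 ± 0.10 (SD, n = 3), a log2 difference of -1.32 (SE 0.12, 95% confidence interval -1.60 to -1.04). As a description of a gene selected on this fall, the signal in knockdown cells was 0.400 of that in control cells. Il13ra1 passed the low-value filter through its control arrays alone, since it exceeded the array median on 3 of 6 arrays and its knockdown mean lay 0.38 below the mean array median. RMA compresses differences this close to background. The arrays measure whole transfected cultures, in which fewer cells with the transcript and less transcript per cell cannot be told apart.

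Il4ra encodes the chain that the type I and type II receptors share and that carries the docking sites for STAT6. It read 9.72, 9.71 and 9.63 on the log2 scale in control cells against 9.03, 9.13 and 9.02 after knockdown. The groups were again fully separated, by 0.50, and all 6 arrays lay above the array median. The means were 9.68 ± 0.048 and 9.06 ± 0.059 (SD, n = 3), and the log2 difference was -0.62 (SE 0.062, 95% confidence interval -0.76 to -0.48), which is 0.650 of the control signal. Within the replicate numbers of the labels, the log2 differences of Il4ra were -0.68, -0.58 and -0.60, and those of Il13ra1 were -1.43, -1.53 and -1.01. The smaller step of Il13ra1 in replicate 3 goes with its lowest control value.

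The DNA just before the start sites is shown for the paired chains and for the decoy gene Il13ra2. The paired chains were selected on their falls, and Il13ra2 read near background, where a fall could not be seen. A link between these sequences and the knockdown differences was not tested. The sequences are the 250 bases upstream of the annotated start in RefSeq, build GRCm38.p6, at chrX:36111858-36112107 (+ strand) for Il13ra1, chr7:125552021-125552270 (+ strand) for Il4ra and chrX:147429193-147429442 (- strand) for Il13ra2. They are written 5′ to 3′ with CG dinucleotides in capitals.
Il13ra1: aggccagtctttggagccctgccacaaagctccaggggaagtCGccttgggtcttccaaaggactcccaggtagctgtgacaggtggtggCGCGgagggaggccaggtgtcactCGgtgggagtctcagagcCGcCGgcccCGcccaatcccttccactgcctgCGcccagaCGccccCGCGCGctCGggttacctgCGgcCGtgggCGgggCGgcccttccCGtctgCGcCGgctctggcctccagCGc
Il4ra: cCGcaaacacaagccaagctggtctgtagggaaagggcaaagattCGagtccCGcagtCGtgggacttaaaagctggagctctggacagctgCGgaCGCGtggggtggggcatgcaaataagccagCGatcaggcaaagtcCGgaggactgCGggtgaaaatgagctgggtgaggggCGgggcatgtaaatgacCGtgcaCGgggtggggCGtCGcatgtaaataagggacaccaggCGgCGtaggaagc
Il13ra2: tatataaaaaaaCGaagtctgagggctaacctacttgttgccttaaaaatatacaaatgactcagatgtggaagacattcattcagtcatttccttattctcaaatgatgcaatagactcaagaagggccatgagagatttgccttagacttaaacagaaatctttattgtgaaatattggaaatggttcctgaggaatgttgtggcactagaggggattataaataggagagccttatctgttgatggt

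In the full 300-base window, which runs to 50 bases after the start, Il13ra1 held 28 CG dinucleotides and Il4ra 25, against 1 in Il13ra2 and a median of 7 over 32851 RefSeq promoter windows. The GC content was 71.0% and 62.0% against 37.7%. The other windows read 44 CG dinucleotides for Jak2, 29 for Jak1, 23 for Tyk2, 19 for Il17rd, 8 for Stat6 and 3 for Il2rg, so a CG-rich start was shared by genes that fell and genes that did not, and no window was listed for Il27ra. The core of the PAX6 paired-domain site, TTCACGC, was searched on both strands and was in 0 of the 9 windows and in 1.26% of all windows. The STAT6-type palindrome TTCNNNNGAA was in 0 of the 9 and in 6.95% of all windows, and the palindrome TTCNNNGAA of other STAT factors in 0 of the 9 and in 8.30%. These counts say only that the letters are not in these windows. After the sequences had been seen, the GC box GGGCGG was found 3 times each in the windows of Il13ra1, Il17rd and Jak2, 2 times in that of Tyk2 and 1 time each in those of Il4ra and Jak1 (35.7% of all windows hold it), and TATAAA was found in the Il13ra2 window 2 times (13.6% of all windows).

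Il13ra2, the decoy chain, read low in both groups. Control cells read 4.72, 4.75 and 4.75 on the log2 scale and knockdown cells 4.56, 5.06 and 4.77, below the array median on 6 of 6 arrays. The knockdown arrays lay on both sides of the control arrays, and the difference of 0.06 (SE 0.12, 95% confidence interval -0.22 to 0.33, from the fit without the low-value filter) is one between values near background, where the array cannot show a change well.

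**Figure D1:**
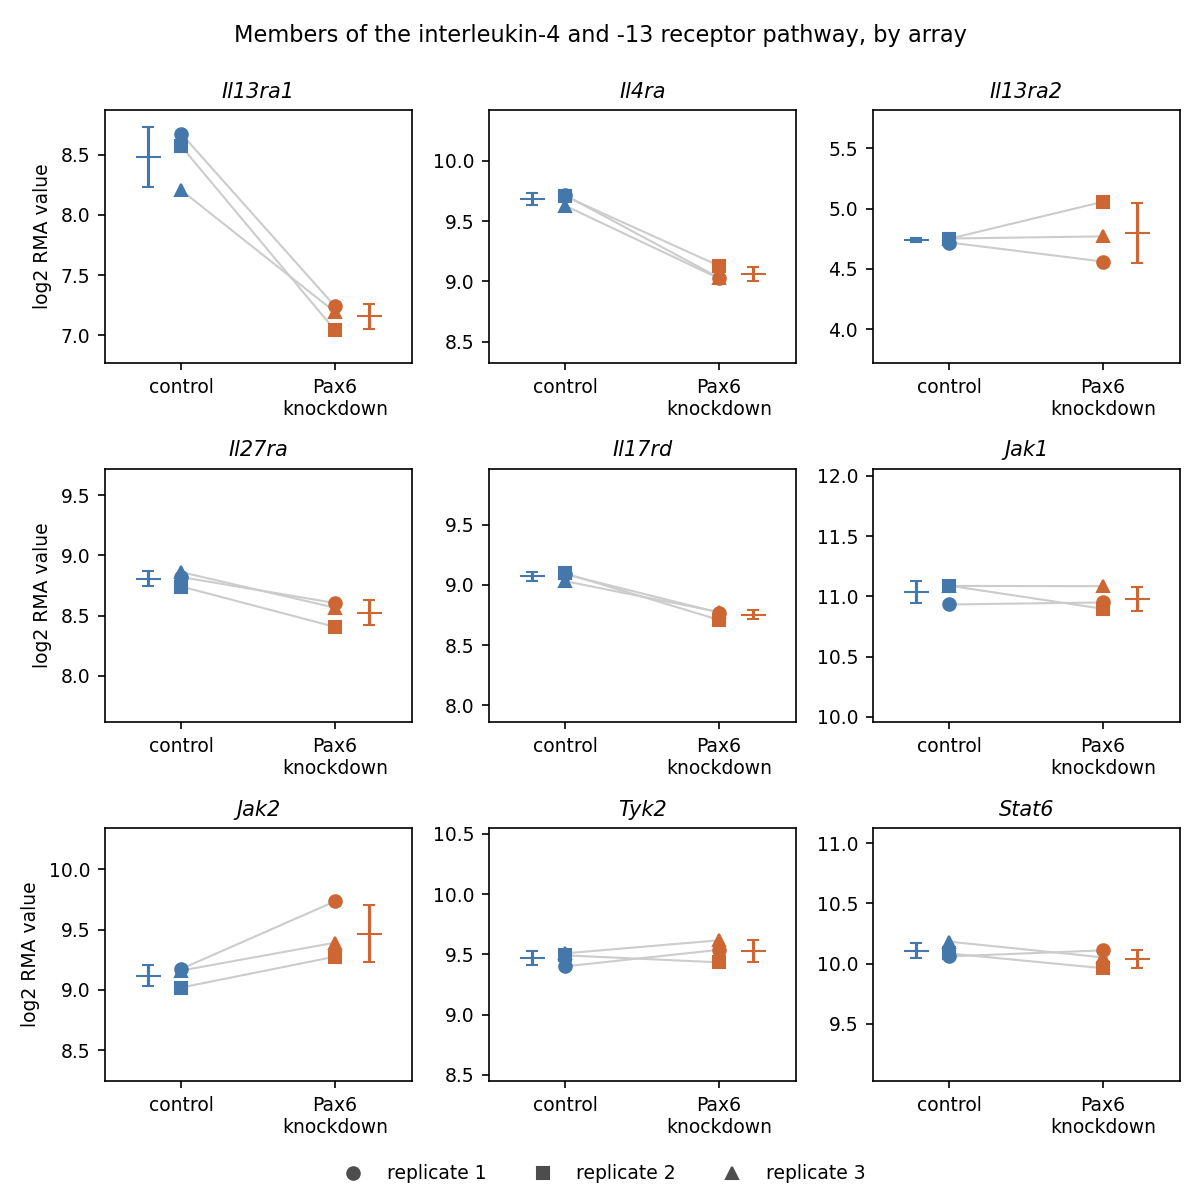
Log2 RMA value (vertical axis, each panel spans the same range) of the 9 measured genes on the control and Pax6 knockdown arrays; symbols are arrays, grey lines join arrays of the same replicate number, and the bars beside them are the mean ± SD of 3 arrays. The groups are far apart for Il13ra1 and Il4ra and closer for Il27ra and Il17rd, and the knockdown arrays of Jak2 lie above its control arrays, replicate 1 the highest (9.73).

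The other receptor genes of the set fell by less. Il27ra encodes the chain that, with gp130, forms the receptor for IL-27, a cytokine that can restrain inflammation. Its array values on the log2 scale were 8.82, 8.74 and 8.86 in control and 8.61, 8.41 and 8.57 in knockdown arrays, so the groups did not overlap, but only 0.14 lay between them. The difference was -0.28 (SE 0.073, 95% confidence interval -0.45 to -0.11). Il17rd, also known as Sef, resembles the IL-17 receptors and is known as an inhibitor of fibroblast growth factor signalling. It read 9.09, 9.09 and 9.03 in control and 8.77, 8.71 and 8.78 in knockdown arrays, a separation of 0.26 and a difference of -0.32 (SE 0.057, 95% confidence interval -0.45 to -0.19). A second Il17rd probe set, which was below the array median on 6 of 6 arrays and was not used in the fit, had means of 7.24 and 7.08, and its groups did not overlap either (lowest control 7.20, highest knockdown 7.12). Both probe sets of Il17rd were thus lower in the knockdown arrays, by 0.32 and 0.16 on the log2 scale.

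Downstream of the receptors neither the kinases nor the transcription factor passed 10% FDR by limma in the fit without the replicate block. Jak2 had the largest difference. The log2 values of Jak2 were 9.17, 9.02 and 9.16 in control and 9.73, 9.28 and 9.39 in knockdown arrays. All knockdown arrays lay above all control arrays, by 0.10, but replicate 1 stood well above the other knockdown arrays. The difference was 0.35 (SE 0.12, 95% confidence interval 0.08 to 0.62), and within replicate numbers it was 0.56, 0.26 and 0.23. Without knockdown replicate 1 it was 0.22.

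Jak1 read 10.93, 11.09 and 11.09 in control and 10.95, 10.90 and 11.08 in knockdown arrays, with overlapping groups and a difference of -0.06 (95% confidence interval -0.23 to 0.12). Tyk2 read 9.40, 9.49 and 9.51 against 9.54, 9.43 and 9.62, also overlapping, with a difference of 0.06 (95% confidence interval -0.10 to 0.22). Stat6, the factor that carries the signal to the nucleus, read 10.06, 10.08 and 10.18 against 10.11, 9.96 and 10.05, with a difference of -0.07 (95% confidence interval -0.22 to 0.09). For all 3 genes the interval of the difference included 0, which does not show that they were unaltered. The array measures transcript, and neither receptor protein nor phosphorylated STAT6 was measured in these data.

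**Figure D2:**
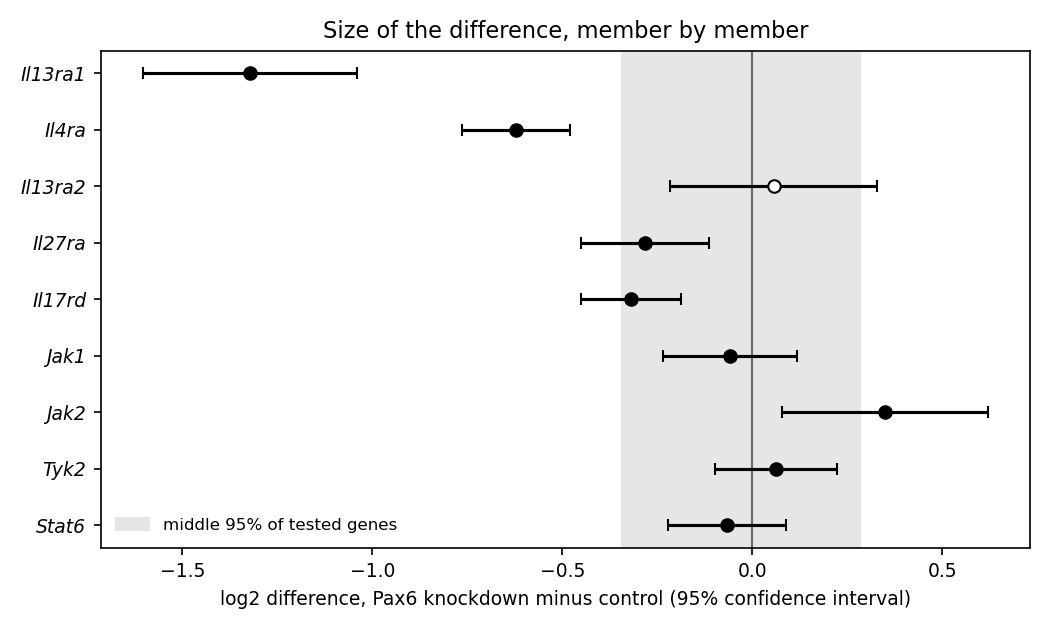
Log2 difference (horizontal axis, knockdown minus control) with its 95% confidence interval from the limma fit for each measured gene; the open circle is Il13ra2, from the fit without the low-value filter, and grey marks the middle 95% of the tested genes (-0.34 to 0.28). Il13ra1 (-1.32) and Il4ra (-0.62) lie outside that band with their whole intervals, which is no evidence, since they were selected on these falls.

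Counted at 10% FDR over all genes in the fit, 4 of the 8 genes were lower (Il13ra1, Il4ra, Il17rd and Il27ra) and 0 higher. Il13ra1 and Il4ra are in this count by selection, and Il13ra1 entered the fit through its control arrays alone. Over all genes in the fit 6.67% were called, 3.88% lower and 2.79% higher. Because the set was built from this same contrast, nothing is read from its excess. The groups did not overlap for 4 of the 8 on the lower side, where 11.7% of all genes in the fit did so, and for Jak2 on the higher side, where 13.9% did so. With the replicate number as a block, Jak2 was called too, giving 4 lower and 1 higher, against 8.91% and 8.96% of all genes in the fit. The median difference was -0.17 over the 8 and 0.02 over all genes in the fit, and nothing is read from the first value either.

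With a single array dropped, the difference lay between -1.46 and -1.23 for Il13ra1 and between -0.66 and -0.60 for Il4ra. Each such fit shares most of its arrays with the contrast that selected these genes, so the ranges show only how much 1 array weighs. Il27ra and Il17rd were no longer counted past 10% FDR without control replicate 1 (differences -0.28 and -0.31), control replicate 2 (-0.31 and -0.31), control replicate 3 (-0.25 and -0.34) or knockdown replicate 3 (-0.30 and -0.33). Jak2 was counted past it without knockdown replicate 2 (0.44).

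**Figure D3:**
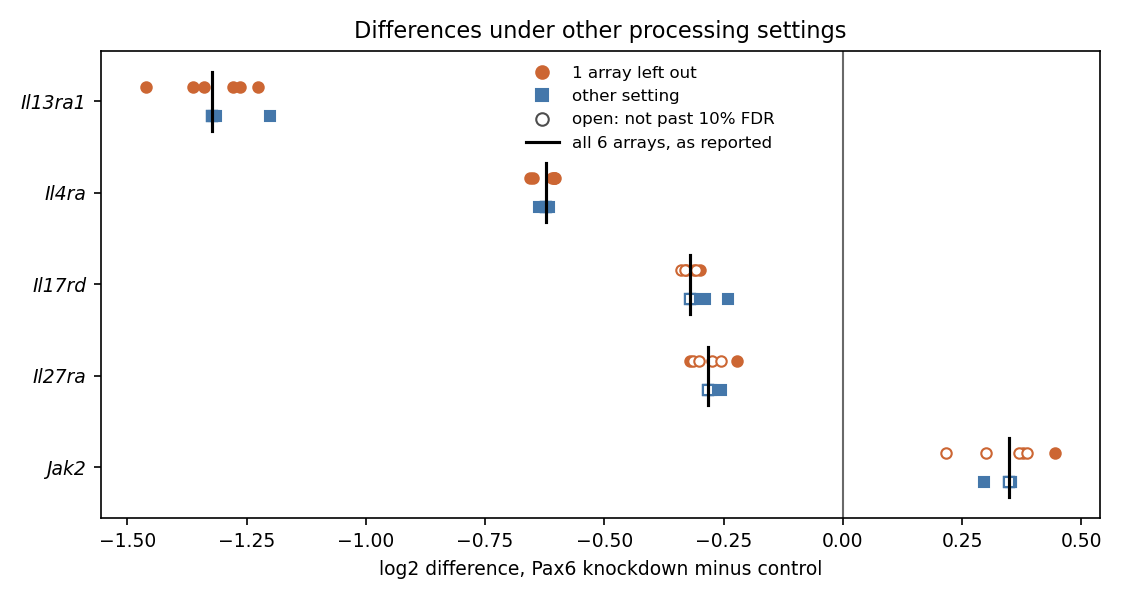
Log2 difference (horizontal axis, knockdown minus control) of 5 genes under each alternative setting; circles leave out 1 array, squares change another setting, open symbols did not pass 10% FDR, and the black line is the value with all 6 arrays. Il13ra1 ranges from -1.46 to -1.20, Il4ra from -0.66 to -0.60 and Jak2 from 0.22 to 0.44.

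To see what else of this signalling system the cells carried, 142 other genes of cytokine receptor signalling were listed in 10 groups by role. Of these, 135 were measured, 71 passed the low-value filter and 64 did not. Of the 71, 2 were lower, 3 higher and 66 did not pass 10% FDR by limma. That is 7.04% of them, beside 6.67% of all genes in the fit, and their median difference was 0.00, beside 0.02. These lists, too, were drawn up with earlier results of these arrays known.

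The ligands came first. Il4 and Il13, the cytokines themselves, read below the array median on all 6 arrays, with log2 means of 7.06 and 7.37 in control and 6.90 and 7.23 in knockdown arrays. Only 3 of 16 ligand genes passed the low-value filter, namely Il17b, Il17c and Il27, and 0 changed by limma at 10% FDR, with 0 at an unadjusted p under 0.05. The differences of Il17c and Il17b were -0.23 (SE 0.10, adjusted p = 0.273) and -0.07 (SE 0.10, adjusted p = 0.787).

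The other receptors were grouped by family, and some families had few tested genes. Of the genes whose products pair with the common gamma chain or resemble it, only 2 of 7 passed the filter, and 0 changed (0 at an unadjusted p under 0.05). They were Il15ra, the IL-15 receptor alpha chain, at 0.00 (SE 0.070), and Crlf2, a receptor chain for thymic stromal lymphopoietin, at -0.03 (SE 0.10). Of 4 tested receptors of the gp130 family 1 fell. This was Cntfr, the receptor for ciliary neurotrophic factor, which supports motor and sympathetic neurons, with log2 values of 12.19, 12.42 and 12.32 in control and 11.75, 11.95 and 11.96 in knockdown arrays. The groups did not overlap, and the difference was -0.43 (SE 0.087, limma adjusted p = 0.0477). Il6st, which encodes gp130, the partner of the IL-27 receptor chain, had a difference of 0.11 (SE 0.074, adjusted p = 0.476). The Il6st value is given because Il27ra needs this partner.

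Of 4 tested beta-common and single-chain receptors 1 fell as well. Ghr, the growth hormone receptor, which signals through JAK2, read 9.53, 9.34 and 9.37 in control and 9.18, 8.87 and 8.96 in knockdown arrays. The groups were separate, and the difference was -0.41 (SE 0.094, limma adjusted p = 0.0646). Of the IL-17 receptors, the relatives of Il17rd, 2 of 4 were tested and 0 changed (0 at an unadjusted p under 0.05), with Il17ra at -0.06 (SE 0.077) and Il17rc at 0.04 (SE 0.059). Of 6 tested interferon and IL-10 receptors 0 changed, and 1 had an unadjusted p under 0.05. That was Ifnar1, a chain of the type I interferon receptor that binds TYK2, at -0.24 (SE 0.086, adjusted p = 0.174), while its partner Ifnar2 was at 0.09 (SE 0.089). With the replicate block Ifnar1 passed (adjusted p = 0.0784, range over the alternatives 0.0175 to 0.582). The low end came from the fit with array weights, which did not converge to tolerance.

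Inside the cell, the remaining STAT genes showed no call. Of 4 tested 0 changed (0 at an unadjusted p under 0.05), with Stat3 at 0.09 (SE 0.063, adjusted p = 0.50) and Stat5b at 0.09 (SE 0.064, adjusted p = 0.489). Of 13 tested adaptors, which link receptors to the RAS and PI3-kinase routes or sort them, 1 rose. Stam, a sorting adaptor of endosomes that binds Janus kinases, read 10.97, 10.95 and 11.01 in control and 11.31, 11.28 and 11.28 in knockdown arrays, so the groups were separate with little spread. Its difference was 0.32 (SE 0.056, limma adjusted p = 0.0326). At an unadjusted p under 0.05, 1 adaptor was lower and 2, Stam among them, were higher. The lower one, Irs1, read -0.23 (SE 0.089, limma adjusted p = 0.219).

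Of 21 tested regulators of the Janus kinase step (SOCS, phosphatase, PIAS, SH2B and CBL genes) 0 changed by limma at 10% FDR, and 3 had an unadjusted p under 0.05. Socs2, a suppressor of growth hormone receptor signalling, read -0.30 (SE 0.088, adjusted p = 0.121) and Ptpn11, the phosphatase SHP2, read 0.22 (SE 0.068, adjusted p = 0.130). With the replicate block both passed (adjusted p = 0.0317 and 0.0437, ranges over the alternatives 0.0088 to 0.463 and 0.00616 to 0.614). Both low ends came from the fit with array weights, which did not converge to tolerance.

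Genes listed here as STAT6 targets, from work on macrophages, T cells and epithelia, were mostly below the filter. This held for 26 of 38 measured ones, among them Arg1, Retnla and Mrc1. Whether STAT6 acts on the listed genes in these cells was not tested. Of the 12 tested 2 rose and 0 fell. Pparg, a nuclear receptor that works with STAT6 in macrophages, read 10.37, 10.28 and 10.32 in control and 10.70, 10.54 and 10.56 in knockdown arrays, a difference of 0.28 (SE 0.067, limma adjusted p = 0.0730). Tgfb1, which encodes the growth factor TGF-beta-1 and is induced through the IL-13 receptors in some cells, read 9.97, 9.96 and 10.08 against 10.23, 10.37 and 10.41, a difference of 0.33 (SE 0.072, limma adjusted p = 0.0564). For both, every knockdown array lay above every control array. The median over the 12 was -0.03, and Gata3, which is also on the neuroblastoma marker list, read -0.21 (SE 0.070, adjusted p = 0.150). With the replicate block Gata3 passed (adjusted p = 0.0703), which made the counts 1 lower and 2 higher.

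**Figure D4:**
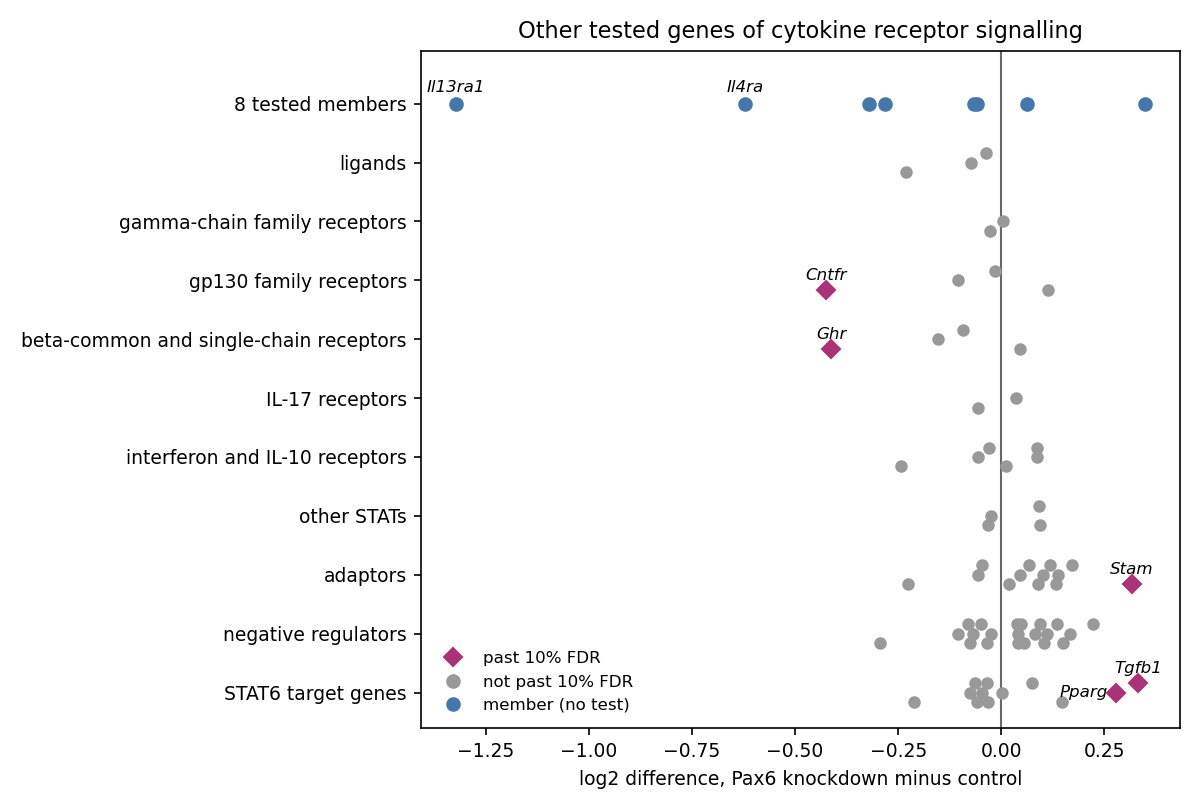
Log2 difference (horizontal axis, knockdown minus control) of the 71 other tested genes by role, with diamonds past 10% FDR. The top row holds the 8 tested genes of the set, which are drawn without a mark for the FDR. Cntfr (-0.43) and Ghr (-0.41) fall and Stam (0.32), Tgfb1 (0.33) and Pparg (0.28) rise. Il13ra1 and Il4ra lie further out, as genes selected on their falls.

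None of these 5 calls held in every fit of 5 arrays. Without control replicate 2, control replicate 3 or knockdown replicate 3, 0 of the 71 passed by limma, with 9, 10 and 8 at an unadjusted p under 0.05, and without control replicate 1 only Cntfr did (adjusted p = 0.0935). Without knockdown replicate 1 Pparg was also lost (adjusted p = 0.129). Over the alternatives the limma adjusted p ran from 0.00278 to 0.2 for Cntfr, 0.00211 to 0.228 for Ghr and 0.00192 to 0.384 for Stam. It ran from 0.00244 to 0.358 for Tgfb1 and 0.00495 to 0.488 for Pparg. Each low end came from the fit with array weights, which did not converge to tolerance. With the replicate block the values were 0.0103 for Cntfr, 0.0104 for Ghr, 0.0184 for Stam, 0.0186 for Tgfb1 and 0.0259 for Pparg. The differences themselves kept their direction, with Cntfr between -0.49 and -0.36, Ghr between -0.50 and -0.35, Stam between 0.30 and 0.33, Tgfb1 between 0.29 and 0.39 and Pparg between 0.23 and 0.31 over the alternatives.

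The genes whose 6 values followed those of Il13ra1 most closely were Cd9, a tetraspanin (Pearson r = 0.999), B2m, the light chain of class I histocompatibility molecules (0.998), Rnf150 (0.998), Galns, a lysosomal sulphatase (0.997), and Scg3, a granule protein of the granin family (0.996). For Il4ra they were Slc2a6, a sugar transporter (0.998), Ebp, an enzyme of cholesterol synthesis (0.996), Sgsh, a lysosomal sulphatase (0.995), Dbn1, an actin-binding protein of dendritic spines (0.995), and Layn, a hyaluronan receptor (0.995). Il13ra1 and Il4ra correlated with each other at 0.973. These are descriptions over 6 arrays of 2 groups, so any gene with a clean fall scores high, and by rank 204 genes tie with Il13ra1 at the top. The log2 differences of these genes ran from -0.19 in B2m, which did not pass 10% FDR (limma adjusted p = 0.115), to -0.44 in Cd9 beside Il13ra1, and from -0.22 in Dbn1 to -0.83 in Layn beside Il4ra.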

How the data were processed

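RNA (200 ng per sample) from N2A cells was hybridised to Affymetrix Mouse Gene 1.0 ST arrays, 3 per group. The deposited values are log2 summaries of 35556 probe sets, which the authors made by RMA background correction and quantile normalisation. Versions, the array annotation build and the height of the authors' low-expression filter are not given in the sources used here. The table held 0 missing values, array medians were 7.49 to 7.59, and at most 20 probe sets had equal values on any pair of arrays. Depth has no meaning here, and the number of arrays limits the precision. The series' design text calls the samples biological replicates, and the p-values reflect how far such cultures vary.

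Probe sets were named from the platform annotation (21789 with 1 symbol, 1621 with several, 12146 with none), and 21698 of the first were found by gene identifier in RefSeq, GRCm38.p6. The probe set with the highest mean was kept per gene. Genes above the median of the array on at least 3 of 6 arrays entered limma 3.58.1 (R 4.3.3; lmFit, eBayes, two-sided, Benjamini-Hochberg over 11424 genes, threshold 10% FDR). The fit was tested on simulated data. The members and lists were chosen with earlier results of these data known. Named were all members, Pax6, per list up to 6 genes past the threshold by lowest adjusted p or else the 2 with the lowest p, and the 5 genes most like Il13ra1 and Il4ra. Il6st, Irs1, Gata3, the ligands Il4, Il13 and Il27, the STAT6 targets below the filter and the marker genes were named beyond that rule, after their values were seen. Deviations from group means correlated within replicate numbers (0.57, 0.32 and 0.23), and so met the criterion for pairs, which the labels do not state. The printed differences, SEs and calls come from the fit without this block, and the blocked fit was an alternative. Control replicate 3 and knockdown replicate 2 also correlated, at 0.18. The alternatives were the replicate block, other filters, the mean of probe sets, array centring, a second quantile normalisation, array weights, a trended robust prior and leaving out each array. Protein sequence features were planned and are not analysed here.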

Additional observations from a re-analysis of the deposited data

How the results depend on the processing

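Il13ra1 (-1.46 to -1.20) and Il4ra (-0.66 to -0.60) were below 0 in the 15 alternatives that could be fitted for them, which their selection on this contrast makes no sign of stability. The 75th percentile filter removed both. The counts depended more on the setting. Genes called across the array, 762 here, numbered 389 with the 25th percentile filter, 245 with no low-value filter, 127 with the variance filter, 1383 after a second quantile normalisation, 4239 with array weights, 2042 with the replicate block and 51 to 1285 with 1 array left out. The array weights did not converge to tolerance. The 5 other pathway genes called became 3 with the 25th and 8 with the 75th percentile filter, 1 with no low-value filter, 0 with the variance filter (6 at an unadjusted p under 0.05), 8 with the trended robust prior, 27 with array weights, 9 with the replicate block and 0 to 6 with 1 array left out. The replicate block changed, among the members, only the call of Jak2, which array centring, array weights and the second quantile normalisation changed too. Il27ra was also lost with the 25th percentile filter, no low-value filter, the variance filter and the trended robust prior, and Il17rd with the variance filter. The mean of both probe sets put Il17rd at -0.24. By Spearman rank correlation 3 of the 5 genes most like Il13ra1 and 1 of the 5 most like Il4ra stayed at the top. Small differences without a call changed sign. With 1 array left out, Crlf2 ranged from -0.131 (without control replicate 2) to 0.0437 (without control replicate 1), Il15ra from -0.0443 (without control replicate 2) to 0.048 (without control replicate 3) and Il17ra from -0.116 (without knockdown replicate 1) to 0.0082 (without knockdown replicate 2), and with array weights Il15ra was -0.0267. The causes were not tested.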
